A study of Mus musculus with 24 samples.

Results

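Macrophages of untreated mouse muscle were sorted by their surface level of Mgl1, the macrophage galactose-type lectin encoded by Clec10a, and the transcriptome of Mgl1high cells was compared with that of Mgl1low cells. The comparison used 8 of the 24 arrays of the series, namely the 4 arrays of Mgl1high and the 4 of Mgl1low macrophages from muscle that received no notexin, the myotoxin that the study injected to cause injury. All cells were CD11b+, negative for Ly6G and NK1.1, low for Ly6C and high for the pan-macrophage antigen that Adgre1 encodes, and came from the tibialis anterior of adult mice on a C57Bl/6 background. Each array held amplified RNA of a pool of 3 mice of 1 strain, and the strains were WT, Cx3cr1-/-, Ccl2-/- and Cx3cr1-/-Ccl2-/-. By their labels the mutant strains lack the fractalkine receptor, the chemokine CCL2 or both in every cell, and neither subset received any treatment. The 4 strains therefore served as the replicates of a subset (n = 4), so that the error given below is the spread between pools of different genotype and holds no replicate of a single strain. Neither the labels nor the methods state the sex of each pool. Xist, which is expressed from the inactive X chromosome, had a log2 level of 9.35 to 9.84 on the 8 arrays, and the Y-linked Kdm5d and Eif2s3y were not above background on any of them, while the Y-linked Uty was above background on 2 arrays of each subset (difference −0.12).

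Resident tissue macrophages are maintained in muscle without injury and take up dying cells, iron and soluble macromolecules through scavenger and lectin receptors. Cells that have entered more recently from blood monocytes tend to keep monocyte genes such as Ccr2 and can release inflammatory mediators. Mgl1 is a lectin of the cell surface that binds galactose-bearing glycans and is found on macrophages of connective tissue.

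A probe was called detected when the authors' detection p against the negative controls of its array was under 0.05. Mgl1high arrays had 15871 to 18043 detected probes and Mgl1low arrays 9896 to 15471, a mean difference of 2966 probes, and every strain had more in its Mgl1high cells. An exact two-sided permutation test gave p = 0.0286, the smallest p that 4 arrays against 4 can reach. Taken as differences within the 4 strains, a test added after seeing the data, the same mean gave an exact two-sided p of 0.125, the smallest that 4 pairs allow. The Ccl2-/- Mgl1low array stood apart with 9896 detected probes, against at least 14897 on each other Mgl1low array, and its mean correlation with the rest of its subset was 0.839. In RNA of sorted cells, fewer cells of a type and less RNA per cell cannot be told apart. The label was checked against its markers first.

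Clec10a, whose product set the gate, was 13.87, 13.87, 13.65 and 13.75 in Mgl1high cells, with array values given throughout in the order of the strains above, and 12.34, 12.64, 12.05 and 12.10 in Mgl1low cells. These are normalised log2 levels, and the difference of 1.504 follows from the sort and is no finding. The transcript was thus far above background in the Mgl1low cells as well. Lyve1, the hyaluronan receptor found on lymphatic vessels and on resident macrophages, was 10.68, 10.87, 10.86 and 10.90 in Mgl1high and 8.05, 9.08, 9.17 and 8.28 in Mgl1low cells, a difference of 2.18 ± 0.28 (SE) log2 units or 4.54-fold (limma, adjusted p = 0.00123). Apoe, which encodes the lipid carrier apolipoprotein E, was 11.92, 11.71, 11.89 and 11.59 against 10.33, 10.62, 9.23 and 9.16, so that every Mgl1high array lay above every Mgl1low array (3.84-fold, adjusted p = 0.00522). Retnla, a gene induced by interleukin-4 in alternatively activated macrophages, did not part the subsets. It was 12.30, 12.12, 12.28 and 12.91 in Mgl1high and 12.47, 12.62, 11.91 and 12.42 in Mgl1low cells, and its difference of 0.05 ± 0.25 did not pass (adjusted p = 0.926).

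The genes of the other gate antigens did not pass. Adgre1 differed by 0.40 (adjusted p = 0.283), Itgam, which encodes CD11b, by −0.62 (adjusted p = 0.381) and Ly6c1 by −0.83 (adjusted p = 0.0611). Without the Cx3cr1-/-Ccl2-/- Mgl1low array Ly6c1 passed at an adjusted p of 0.0475, and Itgam at 0.0461 without the Mgl1high array of that strain. Cx3cr1 was above background on 1 array of each subset, so it could not check the genotype, and for Ccl2 the arrays with the Ccl2-/- label were not the lowest (9.90, 10.06, 10.46 and 10.22 in Mgl1high and 9.17, 9.56, 9.94 and 9.55 in Mgl1low cells). Ccl2 passed as higher in Mgl1high cells without the Ccl2-/- Mgl1low array (adjusted p = 0.0497). The sources used here do not place the Ccl2 probe relative to the disrupted sequence.

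Of 8427 genes tested, each by its brightest probe, 909 (10.8%) were called, and 600 were higher (7.12%) and 309 lower (3.67%) in Mgl1high cells at an adjusted p under 0.05 in limma. All 909 called genes had the same sign in all 4 strains, and for 885 of them the 2 groups of arrays did not overlap, against 1715 (20.4%) of all genes tested. The genes were called on these same arrays, so neither count is independent evidence. The same holds where 1 sign in all strains is given below for called genes. Differences were large for many of them, with 101 genes over 4-fold higher and 52 over 4-fold lower, while the median difference of all genes tested was 0.06 log2 units. The split between higher and lower genes depended on the scaling. When arrays were scaled to a common median, without quantile normalisation, 507 genes were higher and 423 lower, and the median difference moved from 0.06 to −0.07. Without the Ccl2-/- Mgl1low array 659 genes were higher and 407 lower. The number of calls was lowest with some arrays left out, at 546 genes without the Cx3cr1-/- and 521 without the Ccl2-/- Mgl1high array, and 517, 421 and 425 genes without the pairs of WT, Cx3cr1-/- and Cx3cr1-/-Ccl2-/- arrays. Log2 differences also depended on the background correction, which widens differences of dim probes. For the 30 genes named next, the difference without it was 0.432 to 0.872 of that given here (median 0.551), in the same direction for each.

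**Figure D1:**
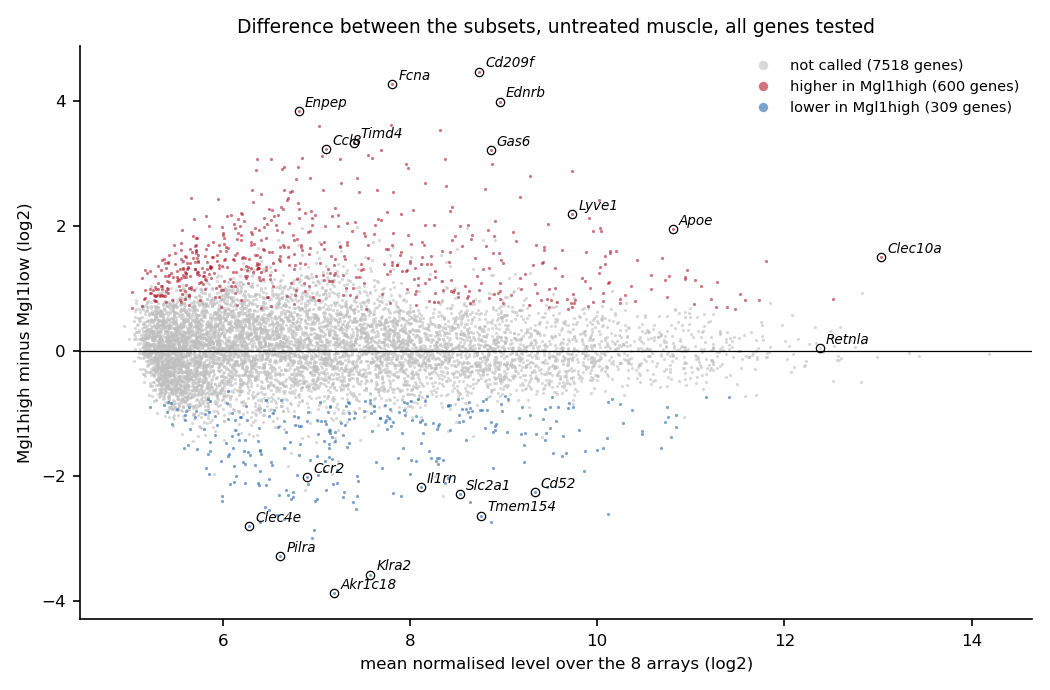
Mgl1high minus Mgl1low difference (log2, y axis) against the mean normalised level over the 8 arrays (log2, x axis) for each of the 8427 genes tested, 1 point a gene. The 600 genes higher and 309 lower at an adjusted p under 0.05 are coloured, circles mark genes named in the text, and Retnla lies on the line at 0 among the most abundant transcripts.

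Of the 15 genes with the largest higher level in Mgl1high cells, 6 are in the resident and scavenger list given below. That list was chosen with results of these data known, so that the overlap is no independent evidence. Cd209f, a mouse C-type lectin of the DC-SIGN family, was 10.83, 10.79, 11.25 and 11.02 in Mgl1high and 6.62, 8.47, 5.11 and 5.80 in Mgl1low cells, a difference of 4.47 ± 0.58 or 22.2-fold (adjusted p = 0.00130). Fcna, which encodes ficolin A, a secreted lectin that starts the lectin pathway of complement, was 9.62, 10.003, 10.01 and 10.13 against 5.43, 7.24, 4.68 and 5.36 (19.2-fold, adjusted p = 0.000577). For both genes the Cx3cr1-/- Mgl1low array was the highest of its subset. The Ccl2-/- array, where neither probe was above background, had the lowest value, and every Mgl1high array lay above all Mgl1low arrays. Timd4, which encodes the phosphatidylserine receptor Tim-4 that binds apoptotic cells, was 9.15, 8.85, 9.46 and 8.82 against 5.40, 6.13, 5.06 and 6.36 (10.1-fold, adjusted p = 0.000401). Gas6, the ligand that bridges phosphatidylserine to the receptor Mertk, was 10.25, 10.14, 10.51 and 10.95 against 7.02, 8.12, 6.31 and 7.57 (9.25-fold, adjusted p = 0.000707). Cd209b, which encodes the lectin SIGN-R1, was 9.13, 9.68, 10.21 and 9.38 against 5.14, 6.28, 6.85 and 5.69 (12.2-fold, adjusted p = 0.000520). The groups did not overlap for any of the 5 genes. Probes of the Cd209 genes can share transcripts of near-identical copies, so their single values are uncertain.

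2 further genes were above background on all 4 Mgl1high arrays and on no Mgl1low array, so that they entered the test through the Mgl1high arrays alone. Enpep, the gene of the cell-surface peptidase aminopeptidase A, was 8.69, 9.004, 8.84 and 8.37 in Mgl1high and 4.64, 5.02, 5.15 and 4.77 in Mgl1low cells, where the probe was not well above background, and was at least 9.38-fold higher. Kank2, an adaptor of the actin cytoskeleton, was 8.67, 8.95, 9.15 and 8.55 against 4.99, 5.20, 5.46 and 5.27, at least 10.1-fold higher. For each bound, a Mgl1low array counted with its own probe value or with the dimmest detected probe on it, whichever was brighter. Folds given below as "at least" were computed the same way, a choice made after seeing the data, for genes above background on 2 arrays or fewer of the dimmer subset. For genes above background on 3 Mgl1low arrays this bound was below the measured fold. It was 18.8 for Cd209f, 15.1 for Fcna, 11.9 for Cd209b and 8.45 for Timd4. For Ednrb, Rnase4, Cnrip1 and Clec3b it was 13.3, 9.52, 7.68 and 6.79. The adjusted p was 3.17e-05 for Enpep and 3.17e-05 for Kank2. Ednrb, the endothelin receptor type B gene, was 10.74, 11.30, 10.998 and 10.78 against 7.73, 8.40, 5.07 and 6.67 (15.9-fold, adjusted p = 0.00225). Rnase4, a secreted ribonuclease gene, was 9.97, 9.91, 9.76 and 10.71 against 7.11, 7.52, 4.92 and 6.64 (11.6-fold, adjusted p = 0.00181). The orphan receptor gene Gprc5b (at least 7.26-fold), Cnrip1 (8.78-fold), the matrix gene Thbs4 (at least 6.40-fold) and Clec3b, which encodes the plasminogen-binding tetranectin (8.45-fold), completed the set, of which Gprc5b and Thbs4 were above background on 2 Mgl1low arrays, with adjusted p from 0.000464 for Cnrip1 to 0.00526 for Gprc5b. The probes of a gene did not always give the same size, and a second tested probe differed by 0.17 for Cnrip1 and by 0.85 for Gprc5b.

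Ccl8 and Siglec1 each had 1 Mgl1low array apart from the others. With 1 array per strain and subset, the strain and the single array cannot be told apart. Ccl8, a chemokine gene, was 8.76, 8.003, 9.10 and 9.002 in Mgl1high cells and 7.99, 4.62, 4.56 and 4.78 in Mgl1low cells, and Siglec1, which encodes the sialic acid receptor CD169, was 8.80, 7.63, 8.74 and 9.32 against 7.62, 4.77, 4.84 and 4.77. For both the WT Mgl1low array was well above the other Mgl1low arrays, which were not above background, and in WT mice the subsets differed by 0.76 for Ccl8 and 1.19 for Siglec1. Siglec1 was at least 5.82-fold higher (adjusted p = 0.0105). Ccl8 (at least 5.81-fold, adjusted p = 0.0136) lost the call without the Ccl2-/- Mgl1high array (adjusted p = 0.0503), and both lost it without the Cx3cr1-/-Ccl2-/- pair of arrays (adjusted p = 0.114 for Ccl8 and 0.101 for Siglec1).

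**Figure D2:**
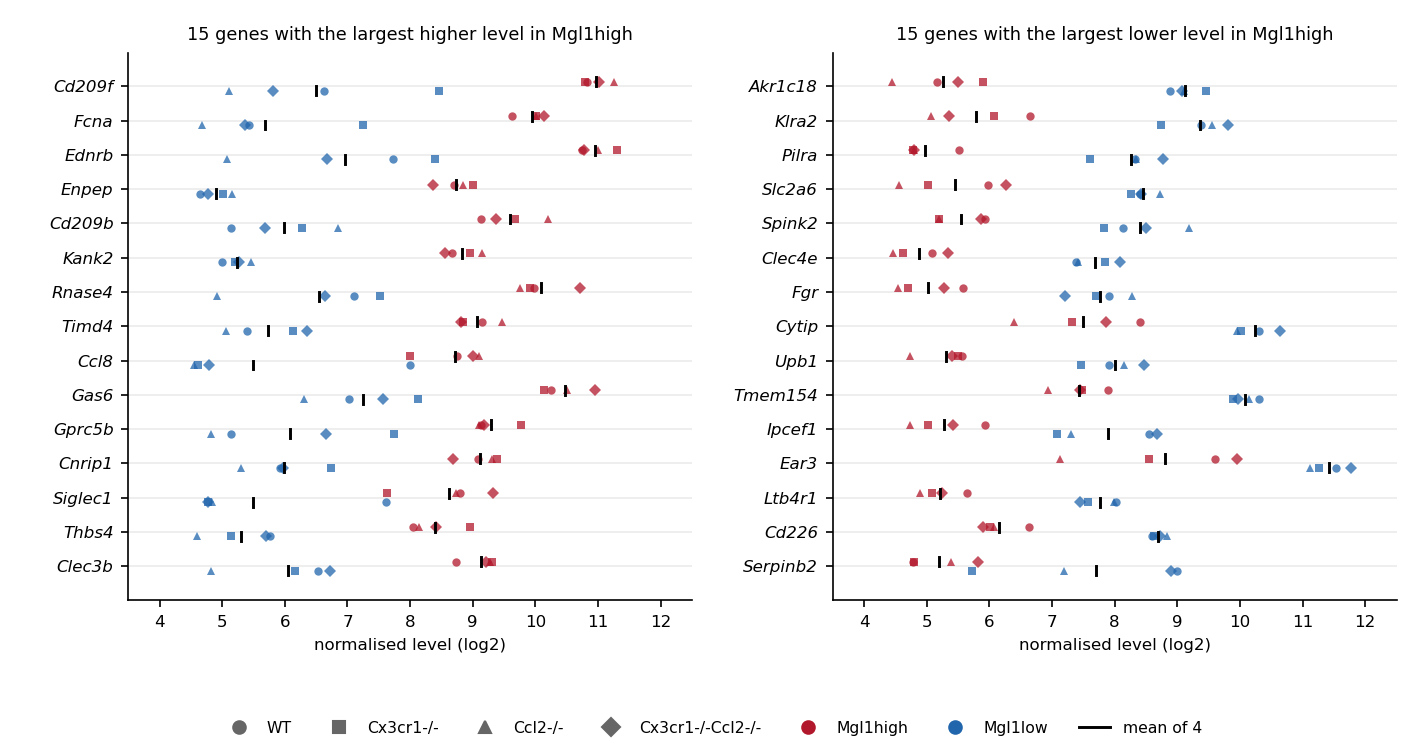
Normalised level (log2, x axis) of the 15 genes with the largest higher (left) and the 15 with the largest lower (right) difference in Mgl1high cells, with red symbols for the 4 Mgl1high arrays, blue for the 4 Mgl1low arrays, a symbol for each strain and a black bar at the mean of 4. The 2 groups are apart for 29 of the 30 genes and overlap for Serpinb2, and the WT Mgl1low array stands above its subset for Ccl8 and Siglec1.

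The upstream sequences of 2 of these genes and of 2 genes that were lower in Mgl1high cells are shown because of 2 results given below. The transcription factor gene Maf was higher in Mgl1high cells, and 5 of 19 inflammatory effector genes tested were lower. Each run is the 250 bases before the RefSeq start on the gene's strand (GRCm38.p6), in lower case, with capitals for a match on either strand to TGCTGAC, the half-site of MAF proteins, or to TGACTCA, the site of AP-1. The 2 motifs share the letters TGAC and can overlap. Timd4 (chr11:46810549-46810798, + strand) and Fcna (chr2:25627975-25628224, − strand) hold TGCTGAC, which starts 45 and 107 bases before the start site. Il1rn (chr2:24336610-24336859, + strand, 1 of 3 windows listed for the gene) and Il6 (chr5:30012864-30013113, + strand) hold the AP-1 letters, at 141 and 249 bases.
Timd4: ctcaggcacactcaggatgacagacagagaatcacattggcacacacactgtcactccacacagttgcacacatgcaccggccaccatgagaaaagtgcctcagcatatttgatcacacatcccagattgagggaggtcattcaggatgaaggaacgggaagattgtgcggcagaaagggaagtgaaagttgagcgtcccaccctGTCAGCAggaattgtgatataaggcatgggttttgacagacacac
Fcna: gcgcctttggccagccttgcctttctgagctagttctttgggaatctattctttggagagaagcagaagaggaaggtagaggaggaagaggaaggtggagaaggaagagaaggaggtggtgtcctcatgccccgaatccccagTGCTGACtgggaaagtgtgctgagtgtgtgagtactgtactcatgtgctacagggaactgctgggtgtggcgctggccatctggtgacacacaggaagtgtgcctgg
Il1rn: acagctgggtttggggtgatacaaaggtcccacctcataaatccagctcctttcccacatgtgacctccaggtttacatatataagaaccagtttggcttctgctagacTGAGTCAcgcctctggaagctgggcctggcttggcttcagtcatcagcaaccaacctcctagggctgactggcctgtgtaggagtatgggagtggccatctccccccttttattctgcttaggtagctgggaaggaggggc
Il6: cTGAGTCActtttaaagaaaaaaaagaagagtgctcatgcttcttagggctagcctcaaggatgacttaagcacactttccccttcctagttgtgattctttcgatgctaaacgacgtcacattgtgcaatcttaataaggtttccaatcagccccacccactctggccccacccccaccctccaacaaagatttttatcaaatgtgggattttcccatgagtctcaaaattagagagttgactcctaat
TGCTGAC was present in 4.31% of the 27025 genes with a promoter window, in 2 of 13 genes with the largest higher level and likewise in 2 of 13 with the largest lower level (Tmem154 and Upb1). TGACTCA was present in 5.16% of all genes, in 1 and 0 of the same 13 genes each, in 3 of 19 resident and scavenger genes and in 5 of 15 inflammatory genes (Cxcl10, Il1a, Il1rn, Il6 and Tnfaip3). GAGGAAGT, the site of the macrophage factor PU.1, was also searched on both strands and was present in 2.79% of all genes, in 2 of the 19 resident and scavenger genes and in 0 of the other sets. Of the inflammatory genes with the AP-1 letters, Il1a and Tnfaip3 were not called in either direction. A match is a description of letters in the window.

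A list of 24 resident and scavenger macrophage genes was tested in full, and 21 were higher and 0 lower, with a median difference of 2.36 against 0.06 for all genes tested. Of the 21, Colec12 was above background on no Mgl1low array and entered the test through the Mgl1high arrays alone. The background shares are those given above, 7.12% of genes higher and 3.67% lower, and the list was chosen with results of these data known. Its largest members were Cd209f, Fcna, Cd209b, Timd4, Gas6, Siglec1, the growth factor binding protein gene Igfbp4 (3.07), the folate receptor gene Folr2 (2.99) and Cd209g (2.95, above background on 1 Mgl1low array). Cbr2, a carbonyl reductase gene, was 9.31, 9.07, 9.34 and 10.30 in Mgl1high and 7.60, 6.96, 6.58 and 6.12 in Mgl1low cells (6.46-fold, adjusted p = 0.00148). Cd209d (2.59), the scavenger receptor gene Msr1 (2.31), Stab1, which encodes stabilin-1 (2.22), and Mrc1, the mannose receptor gene (1.14), were also higher. Msr1 was above background on 2 Mgl1low arrays and was at least 3.92-fold higher. Mrc1, the member with the smallest called difference, was abundant in both subsets, at 11.58, 11.44, 11.51 and 11.95 against 10.79, 10.53, 10.29 and 10.32. The 3 members that were not called were Vsig4, the receptor for complement fragments (1.20, adjusted p = 0.117), the haemoglobin scavenger receptor gene Cd163 (0.92, adjusted p = 0.0569) and Marco (−0.63, adjusted p = 0.195). With the strain as a block Cd163 passed (adjusted p = 0.0347), and without the Ccl2-/- Mgl1low array Vsig4 passed (adjusted p = 0.00656). Without the Cx3cr1-/-Ccl2-/- pair Mrc1 and Stab1 lost their calls (adjusted p = 0.0630 and 0.101).

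Of 11 complement genes tested, 7 were higher (63.6%, against 7.12% of all genes tested) and 1 lower (9.09%, against 3.67%), with a median of 1.11. The 7 became 5 without the Mgl1high array of WT or Ccl2-/- or the Cx3cr1-/-Ccl2-/- Mgl1low array, and 4 without the WT or the Cx3cr1-/-Ccl2-/- pair or with all 24 arrays in the fit. C2, a protease component of the classical and lectin pathways, was 7.85, 8.17, 7.80 and 8.35 in Mgl1high and 4.87, 5.34, 4.72 and 4.98 in Mgl1low cells, where it was above background on 1 array (at least 5.83-fold, adjusted p = 0.000140). C4b, the component that C2 joins, was 11.05, 11.25, 11.41 and 11.19 against 8.25, 9.49, 8.98 and 8.53 (5.32-fold, adjusted p = 0.000699), and its probes can also read C4a, a near-identical gene. Cfb, the factor B of the alternative pathway (1.91), and C5ar1, the receptor for the fragment C5a (1.57), also passed, as did the 3 genes of C1q with differences of 0.91 to 1.14. C3ar1 differed by 0.57 and did not pass (adjusted p = 0.117). The lower member was Itgax, the CD11c gene, at 7.18, 5.62, 5.54 and 6.79 against 8.06, 7.20, 8.28 and 8.42 (−1.71, adjusted p = 0.0260), whose call was lost without the Cx3cr1-/- or Ccl2-/- Mgl1high array or the Cx3cr1-/-Ccl2-/- Mgl1low array (adjusted p up to 0.0861).

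Genes for the uptake of apoptotic cells, iron and lipid were higher or were not called. Of 12 uptake genes tested, 6 were higher (50%, against 7.12% of all genes tested) and 0 lower (median 0.82). Without the Ccl2-/- Mgl1low array 2 were lower. The 6 became 4 without the WT pair and 3 without the Cx3cr1-/- or the Cx3cr1-/-Ccl2-/- pair. Mertk, the receptor tyrosine kinase that Gas6 binds, was 8.83, 9.28, 8.996 and 8.53 against 6.69, 7.69, 6.37 and 7.46 (3.62-fold, adjusted p = 0.00476), and its other ligand gene Pros1 differed by 1.11 (adjusted p = 0.00985). Axl, the related receptor gene, was 6.30, 5.48, 5.79 and 6.10 against 7.88, 6.28, 5.97 and 7.32 and did not pass (−0.94, adjusted p = 0.167), but was called lower without the Ccl2-/- Mgl1low array (adjusted p = 0.0439). The scavenger receptor gene Cd36 differed by 0.81 (adjusted p = 0.0321), and its call was lost with the strain as a block (adjusted p = 0.0510) and without any 1 Mgl1high array or the Cx3cr1-/-Ccl2-/- Mgl1low array (up to 0.103).

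Of 14 heme and iron genes tested, 5 were higher (35.7%, against 7.12% of all genes tested) and 0 lower (median 0.48). Slc40a1, the gene of the iron exporter ferroportin, was 7.75, 8.33, 8.49 and 7.76 in Mgl1high cells and 4.86, 5.61, 5.09 and 5.13 in Mgl1low cells, where it was above background on 1 array (at least 5.72-fold, adjusted p = 0.000355). Tfrc, the receptor that imports transferrin-bound iron, was 10.38, 10.33, 10.65 and 10.27 against 8.15, 8.71, 7.66 and 7.28 (5.50-fold, adjusted p = 0.000940). The others were Cp, which encodes the ferroxidase ceruloplasmin (2.24), Blvrb, which encodes a biliverdin reductase (1.58), and Hmox1, the heme-degrading oxygenase gene (1.33), with adjusted p from 0.000809 for Cp to 0.00400 for Blvrb. Of 16 genes of cholesterol handling by the liver X receptors, 4 were higher (25%, against 7.12%) and 0 lower (median 0.29). Without any 1 Mgl1high array or the Cx3cr1-/-Ccl2-/- Mgl1low array 2 were higher. The 4 were Apoe, Cd36, Mylip, which encodes an E3 ligase that degrades lipoprotein receptors (1.66, adjusted p = 0.00299), and the cholesterol exporter gene Abca1 (1.88, adjusted p = 0.0447). Mylip was above background on 2 Mgl1low arrays and was at least 2.44-fold higher. Abca1 was 8.83, 9.17, 9.02 and 8.01 against 8.02, 7.54, 5.34 and 6.62, with the WT arrays closest to each other, and lost its call without the same single arrays as Cd36 (adjusted p up to 0.126).

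Akr1c18 had the largest lower level in Mgl1high cells. This gene, which encodes a steroid dehydrogenase that inactivates progesterone, was 5.16, 5.89, 4.45 and 5.504 in Mgl1high and 8.89, 9.45, 9.10 and 9.08 in Mgl1low cells, at least 12.8-fold lower (difference −3.88 ± 0.30, adjusted p = 0.000218). Klra2, a receptor gene of the Ly49 family, was 6.64, 6.08, 5.06 and 5.36 against 9.37, 8.74, 9.56 and 9.80 (12-fold lower, adjusted p = 0.000520). The probes of this family can share reads of near-identical members, and a second tested probe of Klra2 differed by −1.16. Pilra, an inhibitory immunoglobulin-like receptor gene, was 5.52, 4.77, 4.80 and 4.80 against 8.32, 7.60, 8.34 and 8.78 (at least 7.98-fold lower, adjusted p = 0.000355), and was above background in Mgl1high cells of WT mice alone. Clec4e, the gene of the lectin Mincle that senses mycobacterial glycolipid and dead cells, was 5.08, 4.63, 4.46 and 5.35 against 7.38, 7.85, 7.42 and 8.09 (at least 5.45-fold lower, adjusted p = 0.000407). The groups did not overlap for these 4 genes. In Mgl1high cells Clec4e was above background on 1 array, Akr1c18 on 2 and Klra2 on 3.

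Of the rest of the 15, Slc2a6, Fgr, Ipcef1, Spink2, Ltb4r1 and Serpinb2 were above background on 2 Mgl1high arrays. Slc2a6, a hexose transporter gene (−2.995), the kinase gene Fgr (−2.75), Cytip and Ipcef1, which encode binding partners of cytohesins (−2.74 and −2.63), and the protease inhibitor gene Spink2 (−2.87) were all lower, with adjusted p from 0.000609 for Fgr to 0.00300 for Ipcef1. Ltb4r1, the receptor gene for leukotriene B4, was 5.65, 5.09, 4.89 and 5.24 against 8.03, 7.58, 7.99 and 7.44 (at least 5.38-fold lower, adjusted p = 0.000407). Cd226, which encodes an adhesion receptor of lymphocytes and monocytes, was 6.63, 6.01, 6.07 and 5.90 against 8.59, 8.63, 8.83 and 8.72 (5.82-fold lower, adjusted p = 0.000335), with a spread between arrays of no more than 0.32 (SD) in either subset. Upb1, which encodes an enzyme of pyrimidine breakdown (−2.70), and Tmem154 (−2.64) passed with an adjusted p of 0.000520 and 0.000394. Ear3, of the family of eosinophil-associated ribonucleases, was 9.59, 8.55, 7.13 and 9.95 against 11.53, 11.26, 11.12 and 11.77 (−2.61, adjusted p = 0.0105), and its probes may read other members of that family. Serpinb2, the gene of plasminogen activator inhibitor 2, was the least even, at 4.78, 4.80, 5.38 and 5.81 against 9.0, 5.72, 7.19 and 8.90 (−2.51, adjusted p = 0.0333). Its groups overlapped, because the Cx3cr1-/- Mgl1low array was low, and the call was lost without any 1 Mgl1high array and without the WT or the Cx3cr1-/-Ccl2-/- Mgl1low array (adjusted p up to 0.0993), while Ear3 lost it without the Cx3cr1-/- pair (adjusted p = 0.0755).

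The monocyte genes that passed were lower. Of 14 genes of monocytes and recruited macrophages tested, 0 were higher, 3 lower (21.4%, against 3.67% of all genes tested) and 11 not called. The median was −0.85 (−1.02 with 1 median per array, where 6 were lower). Without the Ccl2-/- Mgl1low array 5 were lower. Ccr2, the receptor for CCL2 that monocytes need to leave the marrow, was 6.35, 5.56, 5.85 and 5.79 in Mgl1high and 7.85, 7.99, 8.23 and 7.57 in Mgl1low cells (4.06-fold lower, adjusted p = 0.000813). Cd52, a small glycoprotein gene of blood leukocytes, was 8.87, 7.39, 7.53 and 8.999 against 10.80, 10.08, 10.32 and 10.66 (4.81-fold lower, adjusted p = 0.00490), and the aspartic protease gene Napsa differed by −2.12 (adjusted p = 0.00164). Napsa was above background on 2 Mgl1high arrays and was at least 4.08-fold lower. All 3 genes were lower in each of the 4 strains.

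Of 19 inflammatory effector genes tested, 0 were higher and 5 lower (26.3%, against 3.67% of all genes tested), with a median of −0.36. The 5 became 3 without the Cx3cr1-/- Mgl1high array and 2 without the Cx3cr1-/- pair. Il1rn, the gene of the interleukin-1 receptor antagonist, was 6.96, 7.10, 6.62 and 7.41 in Mgl1high and 9.40, 9.08, 9.31 and 9.03 in Mgl1low cells (4.54-fold lower, adjusted p = 0.000520). Il6 was 8.93, 9.15, 8.31 and 8.72 against 10.32, 10.69, 10.51 and 10.33 (3.22-fold lower, adjusted p = 0.00165), and Il1b was 9.52, 8.72, 8.22 and 9.81 against 10.53, 10.71, 10.45 and 11.02 (3.06-fold lower, adjusted p = 0.0135). All 3 were detected on all 8 arrays. The chemokine gene Cxcl10 differed by −1.87 (adjusted p = 0.0123) and the prostaglandin synthase gene Ptgs2 by −1.69 (adjusted p = 0.0311). Ptgs2 lost its call when any 1 array other than those of WT Mgl1high and Ccl2-/- Mgl1low cells was left out (adjusted p up to 0.103), and Il1b was not without the Cx3cr1-/- Mgl1high array (adjusted p = 0.0511). Tnf was 7.22, 6.92, 7.51 and 8.88 against 6.88, 7.19, 6.98 and 8.27 and showed no such difference (0.31 ± 0.44, adjusted p = 0.70).

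Of 14 genes of antigen presentation by MHC class II tested, 3 were lower and 1 was higher (median −0.33). The shares were 21.4% lower and 7.14% higher, against 3.67% and 7.12% of all genes tested. The lower ones were genes of the peptide-loading chaperone H2-M, with H2-DMb2 at 8.16, 7.001, 6.54 and 8.02 in Mgl1high and 9.52, 9.59, 10.06 and 10.22 in Mgl1low cells (5.34-fold lower, adjusted p = 0.00275). Its near copy H2-DMb1 and H2-DMa differed by −1.27 and −1.64. The classical chain genes were abundant in both subsets, with H2-Ab1 at 12.04, 11.59, 11.83 and 12.45 against 12.27, 12.14, 12.09 and 12.45 (adjusted p = 0.508), and H2-Aa (−0.39), H2-Eb1 (−0.58) and the invariant chain gene Cd74 (−0.48) did not pass either. Cd40, the costimulatory receptor gene, was higher (1.37, adjusted p = 0.00421).

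Genes of alternative activation moved in both directions. Of 15 tested, 5 were higher (33.3%, against 7.12% of all genes tested) and 2 lower (13.3%, against 3.67%), with a median of 0.91. The 5 became 3 without the Mgl1high array of Cx3cr1-/- or Cx3cr1-/-Ccl2-/- or the Mgl1low array of the latter, and 1 without its pair, and the 2 became 1 without any 1 Mgl1high array or the WT or Cx3cr1-/-Ccl2-/- Mgl1low array. Mgl2, the lectin gene next of kin to Clec10a, was 10.79, 10.72, 10.79 and 11.34 in Mgl1high and 8.66, 9.20, 8.88 and 9.25 in Mgl1low cells (3.76-fold, adjusted p = 0.000929). The 2 genes are close relatives, so that a probe of one may read the other. Il10, an anti-inflammatory cytokine gene, was 9.06, 9.57, 9.66 and 9.28 against 8.06, 8.21, 6.77 and 7.82 (3.20-fold, adjusted p = 0.00834), and the growth factor gene Igf1 differed by 1.20 (adjusted p = 0.0226, but up to 0.0668 without a single mutant Mgl1high array or the Cx3cr1-/-Ccl2-/- Mgl1low array). The lower ones were the fibronectin gene Fn1 (−2.18) and Socs2 (−1.31), a suppressor of cytokine signalling whose adjusted p of 0.0461 rose to 0.135 with 1 array left out. The arginase gene Arg1 (0.29) and Chil3 (−0.87) did not pass, with adjusted p of 0.879 and 0.690. Both were high in the WT Mgl1low array, at 9.88 for Arg1 and 10.76 for Chil3, against 4.90 to 6.54 and 4.78 to 6.16 in the other Mgl1low arrays. Tgm2, the transglutaminase gene, differed by −2.23 and did not pass (adjusted p = 0.0531), but did with the strain as a block (adjusted p = 0.0146) and without the Ccl2-/- Mgl1low array (adjusted p = 0.00847).

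**Figure D3:**
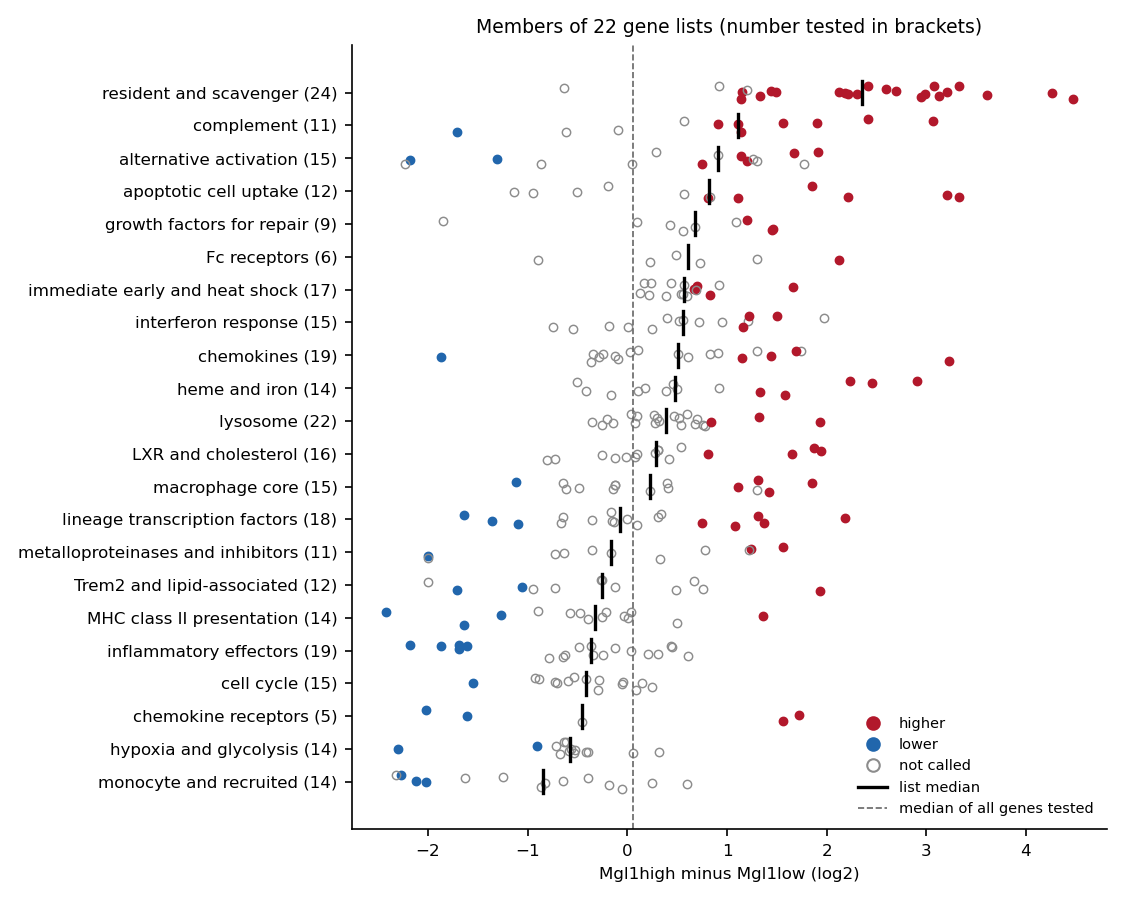
Mgl1high minus Mgl1low difference (log2, x axis) of each tested member of 22 gene lists (y axis, number tested in brackets, vertical scatter within a list carries no value), with filled symbols for genes that passed, a black bar at the list median and a dashed line at the median of all genes tested (0.06). The resident and scavenger list lies farthest to the right, with a median of 2.36 and 1 member below 0, and the monocyte list farthest to the left, at −0.85.

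Chemokine genes were also split, with 21.1% of those tested higher and 5.26% lower, against 7.12% and 3.67% of all genes tested. Of 19 tested, 4 were higher, namely Ccl8, Pf4, which encodes platelet factor 4 (1.15, adjusted p = 0.0175), Cxcl12, which retains stem cells and leukocytes (1.69, adjusted p = 0.0182), and Ccl7 (1.44, adjusted p = 0.0255), and Cxcl10 was lower. All 4 higher genes lost their calls without the Ccl2-/- Mgl1high array and without the pair of Cx3cr1-/- or Cx3cr1-/-Ccl2-/-. With single arrays left out the adjusted p reached 0.0629 for Pf4, 0.0533 for Cxcl12 (without the Ccl2-/- Mgl1high array) and 0.0827 for Ccl7 (without any 1 Mgl1high array or the Cx3cr1-/-Ccl2-/- Mgl1low array). Of 5 receptors of chemoattractants tested, C5ar1 and the formyl peptide receptor gene Fpr2 (at least 1.89-fold, adjusted p = 0.000577) were higher, and Ccr2 and Ccrl2, which encodes a receptor that binds chemerin without signalling (−1.61, adjusted p = 0.00920), were lower. Fpr2 was above background on no Mgl1low array, so that it entered the test through the Mgl1high arrays alone.

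Transcription factor genes differed in both directions, with 5 higher and 3 lower of 18 tested (median −0.07). The shares were 27.8% higher and 16.7% lower, against 7.12% and 3.67% of all genes tested. Maf, a factor of mature macrophages, was 9.32, 9.30, 9.67 and 9.46 in Mgl1high and 8.22, 8.41, 8.13 and 7.75 in Mgl1low cells (2.48-fold, adjusted p = 0.00377). Tcf4 (2.19), Irf8 (1.37), Klf2 (1.08) and Klf4 (0.75) were also higher, of which Klf4 did not pass with the strain as a block (adjusted p = 0.0583) or without most single arrays (up to 0.116). Bhlhe40, a repressor gene, was 9.46, 9.04, 7.76 and 9.14 against 10.55, 10.41, 10.49 and 10.53 (3.12-fold lower, adjusted p = 0.0114), and Id2 (−1.10) and the lipid-sensing receptor gene Pparg (−1.36) were lower too. Each of these 3 was lower in 4 of 4 strains, and Pparg, above background on 2 Mgl1high arrays, was at least 2.24-fold lower. Without the Ccl2-/- or Cx3cr1-/-Ccl2-/- Mgl1high array, or the Mgl1low array of the latter strain, the adjusted p of Pparg reached 0.0653.

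Of 14 genes of hypoxia and glycolysis, 0 were higher and 2 lower (median −0.58), or 14.3% against the 3.67% of all genes, namely the glucose transporter gene Slc2a1, at 7.94, 7.26, 6.28 and 8.06 against 10.06, 9.53, 9.40 and 9.75 (4.93-fold lower, adjusted p = 0.00361), and Pkm (−0.91, adjusted p = 0.0357, up to 0.118 with any 1 array left out but those of Cx3cr1-/-Ccl2-/- Mgl1high and Ccl2-/- Mgl1low cells). Without the Ccl2-/- Mgl1low array 4 were lower, and without any 1 other array than that and Cx3cr1-/-Ccl2-/- Mgl1high 1 was. Of 17 immediate early and heat shock genes, which dissociation of tissue is known to induce, 5 were higher and 0 lower (median 0.57), or 29.4% against 7.12%. Jun was 10.19, 10.33, 10.34 and 10.18 in Mgl1high and 8.59, 8.70, 8.62 and 8.47 in Mgl1low cells (3.17-fold, adjusted p = 0.000577). Dnajb1 (0.70), Atf3 (0.67) and Hspa1a (0.67) were called but lost the call with the strain as a block (adjusted p = 0.0683, 0.0726 and 0.0742). With single arrays left out 1 to 4 of the 17 were called, with 1 without the Mgl1high array of WT, Cx3cr1-/- or Ccl2-/- or the Cx3cr1-/-Ccl2-/- Mgl1low array, and with 1 median per array 1 was.

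The other lists follow, with 7.12% of all genes tested higher and 3.67% lower. Shares higher were 13.6% (lysosome), 20% (interferon), 0% (cell cycle), 33.3% (growth factors), 26.7% (core macrophage), 16.7% (Fc receptors), 8.33% (lipid-associated) and 18.2% (metalloproteinases). Shares lower were 6.67% (cell cycle), 6.67% (core macrophage), 16.7% (lipid-associated), 9.09% (metalloproteinases) and 0% for the rest. Of 22 lysosome genes, 3 were higher and 0 lower (Ctsl, Lgmn and Ctsc, median 0.39). The 3 became 1 without the WT or Ccl2-/- Mgl1high array or the Ccl2-/- pair. They became 0 without the Cx3cr1-/- or the Cx3cr1-/-Ccl2-/- pair. Ctsl was above background on 2 Mgl1low arrays and was at least 2.72-fold higher. Of 15 interferon response genes, 3 were higher (median 0.56). Of 15 cell cycle genes, 0 were higher and 1 lower (Rrm2, median −0.41). Of 9 growth factor genes, 3 were higher (Igf1, Vegfb and Hbegf, median 0.68), and Hbegf did not pass with the strain as a block (adjusted p = 0.0589). The 3 became 1 without any 1 mutant Mgl1high array or the Cx3cr1-/-Ccl2-/- Mgl1low array, and 0 without the pair of that strain. Hbegf lost its call without any 1 Mgl1high array or the Cx3cr1-/- or Cx3cr1-/-Ccl2-/- Mgl1low array (adjusted p up to 0.119). Vegfb was above background on 1 Mgl1low array and was at least 1.72-fold higher. Of 15 core macrophage genes, 4 were higher, among them the growth factor receptor gene Csf1r (1.42), and 1 lower, the perforin-2 gene Mpeg1 (−1.12), with a median of 0.23. Both genes were detected on all 8 arrays. Of 6 Fc receptor genes 1 was higher, Fcgrt (2.12), and of 12 genes of lipid-associated, Trem2-expressing macrophages 1 was higher and 2 lower (median −0.26). With the Cx3cr1-/- or Ccl2-/- Mgl1high array left out, or the Cx3cr1-/- or Cx3cr1-/-Ccl2-/- pair, 0 of these 12 were called. Of 11 metalloproteinase and inhibitor genes 2 were higher and 1 lower (median −0.16). The higher gene Mmp2 was above background on no Mgl1low array and was at least 1.48-fold higher.

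Markers of other cells were examined as well. Of 13 muscle fibre genes tested, 6 were higher (46.2%, against 7.12% of all genes tested) and 0 lower. Of the 6, Mb was above background on no Mgl1low array and entered the test through the Mgl1high arrays alone. The 6 became 2 without the Cx3cr1-/- or Ccl2-/- Mgl1high array, 3 without either Cx3cr1-/-Ccl2-/- array, 9 without the Ccl2-/- Mgl1low array and 3, 1 and 4 without the Cx3cr1-/-, Cx3cr1-/-Ccl2-/- and WT pairs, and 2 with no filter on dim probes. The summed linear level of the list was 1505 to 3594 in Mgl1high and 567 to 2405 in Mgl1low cells, with the highest Mgl1low value on the Ccl2-/- array. Tnnc2, a fast troponin gene, was 7.08, 8.69, 8.13 and 8.16 against 4.99, 6.06, 5.80 and 4.99 (at least 5.05-fold, above background on 1 Mgl1low array, adjusted p = 0.00222). Of 11 fibroblast genes tested, 8 were higher (72.7%) and 1 lower (9.09%), with sums of 4366 to 7223 against 1390 to 1898, so that these groups did not overlap. The lower gene was Pi16, above background on 2 Mgl1high arrays and at least 3.43-fold lower. The 2 that were not called were the receptor gene Pdgfra (−0.75) and Tnxb (0.78), and Lum and Mfap5 were not detected. The 8 became 5 without the Mgl1high array of Cx3cr1-/- or Cx3cr1-/-Ccl2-/-, without the Mgl1low array of the latter, without the WT or Cx3cr1-/- pair, with all 24 arrays in the fit and with no filter on dim probes, and 4 without the Cx3cr1-/-Ccl2-/- pair. Col1a1, the collagen gene, was 9.20, 9.92, 8.81 and 10.89 against 7.94, 7.81, 4.996 and 7.496 (6.25-fold, adjusted p = 0.0281, up to 0.0841 without a single Mgl1high array other than that of Ccl2-/- or without the Cx3cr1-/-Ccl2-/- Mgl1low array), and Dcn, the decorin gene, was 8.99, 9.98, 9.17 and 9.97 against 7.17, 7.73, 7.72 and 7.52 (3.98-fold, adjusted p = 0.00188). Col1a1 was not above background on the Ccl2-/- Mgl1low array, and with the bound used above it was 5.19-fold higher. The number of detected probes moved the same way as these lists. The part of these transcripts in the higher genes given above was not tested, and Clec3b, one of the largest of them, is itself in the fibroblast list.

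In the other direction, Siglecf, a receptor gene of eosinophils, was 5.20, 4.99, 4.75 and 5.08 in Mgl1high and 8.28, 6.33, 6.11 and 7.85 in Mgl1low cells (at least 3.89-fold lower, above background on 1 Mgl1high array, adjusted p = 0.0135, 0.0503 without the Ccl2-/- Mgl1high array). The summed level of 10 eosinophil genes was 105 to 366 against 302 to 947. The granule protein genes Epx and Prg2 were each above background on 1 Mgl1low array and no Mgl1high array, and Ear3 moved the same way. The part of such transcripts in the lower genes was not tested. In its day-4 gating the study left out Mgl1-negative cells that looked like eosinophils. Of 4 T and NK cell genes tested 2 were lower (50%, against 3.67% of all genes tested), the receptor genes Il7r (−1.997) and Cd2 (−1.76). Cd3d, Cd3g and Cd4 were not detected on any array, and the sums were 1799 to 2273 against 2156 to 2784. Of 10 dendritic cell genes 3 were higher (30%, against 7.12%) and 2 lower (20%, against 3.67%), and Xcr1 and Clec9a were not detected. Of 4 mast cell and basophil genes 1 was higher (25%, against 7.12%), Mcpt4 (at least 1.24-fold, above background on no Mgl1low array). The sums of that list were 443 to 1035 in Mgl1high against 434 to 2138 in Mgl1low cells. The Mgl1high sum was the larger in 1 of 4 strains. Of 2 Schwann cell genes 1 was higher, Pmp22. No gene of the endothelial, pericyte, neutrophil or erythroid lists passed in limma, where 5, 3, 2 and 1 genes were tested and 1, 1, 1 and 0 of them had an unadjusted p under 0.05, and no gene of the satellite cell, B cell and adipocyte lists was detected on enough arrays to be tested.

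**Figure D4:**
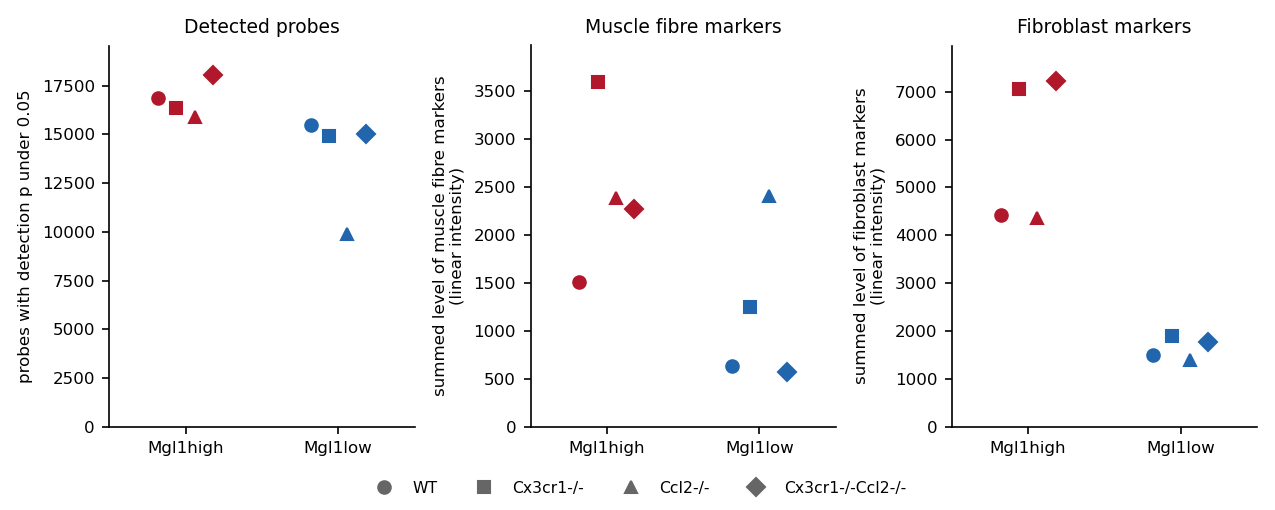
Detected probes (left), summed linear level of muscle fibre markers (middle) and of fibroblast markers (right) on each array, with red for Mgl1high, blue for Mgl1low and a symbol for each strain. The Ccl2-/- Mgl1low array has the fewest detected probes (9896), and the fibroblast sums of all 4 Mgl1high arrays (4366 to 7223) lie above those of all 4 Mgl1low arrays.

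The subset difference was then set against that on day 4 after notexin, when the same strains gave 8 more arrays with the same subset labels. The test was of the difference between the 2 differences, over 16 arrays, and it passed for 745 of 9406 genes (7.92%). Of the 909 genes called in untreated muscle, 337 passed it. For 240 of them the day-4 difference had the opposite sign, for 95 it had the same sign and was smaller, and for 2 it was larger. The 909 genes were selected by their untreated difference, which is itself part of the contrast. That selection favours a larger untreated difference, so the split is no finding about the genes. A day-4 value near 0 counts here by its sign alone. The day-4 differences alone were not tested. The median of this contrast over all genes was 0.28 and not 0, it moved to 0.02 with 1 median per array, where 601 genes were larger and 1116 smaller in untreated muscle, and it was 0.12 without the 2 arrays of lowest detection, namely the Cx3cr1-/- Mgl1high array of day 4 (9369 probes) and the Ccl2-/- Mgl1low array. The values of the contrast stand relative to that shift.

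Apoe differed by 1.94 between the subsets in untreated muscle and by −0.31 on day 4 (contrast 2.25 ± 0.49, adjusted p = 0.0182). Retnla showed the reverse, with 0.05 in untreated muscle and 3.13 on day 4 (contrast −3.08 ± 0.44, adjusted p = 0.00286). Of the 4 label markers, Clec10a and Lyve1 had a higher level in Mgl1high cells under both conditions, with day-4 differences of 1.29 and 2.81 and contrasts that did not pass (adjusted p = 0.725 and 0.578). The contrast of Apoe did not pass without the Cx3cr1-/-, Ccl2-/- or Cx3cr1-/-Ccl2-/- arrays (adjusted p = 0.0557, 0.0898 and 0.145). Without the last of these it was 1.91, and that of Retnla was −3.06 (adjusted p = 0.0352).

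Thbd, the gene of the anticoagulant receptor thrombomodulin, differed by 2.77 in untreated muscle and −1.65 on day 4 (contrast 4.42 ± 0.75, adjusted p = 0.00529). Slc40a1 went from 2.91 to −0.36 (adjusted p = 0.0370), Hpgds, a prostaglandin D synthase gene, from 2.26 to −0.65 (adjusted p = 0.00286), and Rnase4 and Thbs4 from 3.54 and 3.09 to 0.51 and 0.30. For each of these the difference in favour of Mgl1high cells was larger in untreated muscle. Mertk likewise went from 1.86 to −0.64 (contrast 2.497, adjusted p = 0.0183). Thbd and Hpgds were above background on 2 untreated Mgl1low arrays. With the bound used above their untreated differences were 2.29 and 1.94. Without the Cx3cr1-/-, Ccl2-/- or Cx3cr1-/-Ccl2-/- arrays the contrast of Mertk did not pass (adjusted p = 0.0504, 0.0952 and 0.109), nor did that of Slc40a1 (0.157, 0.104 and 0.154), which also failed without the 2 arrays of lowest detection (0.0693). The contrasts of Rnase4 and Hpgds did not pass without the Cx3cr1-/-Ccl2-/- arrays (0.112 and 0.0624), nor did that of Thbs4, without these (0.0918) or the Cx3cr1-/- arrays (0.0713). In the other direction Akr1c18 went from −3.88 to 0.05 (contrast −3.93 ± 0.36, adjusted p = 5.44e-05), and Cyp11a1, which encodes the first enzyme of steroid synthesis, from −1.92 to 1.72 (adjusted p = 0.00310). Il6 went from −1.69 to 0.95 (contrast −2.64, adjusted p = 0.00187).

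The number of contrasts that passed rested on the strains included. Without the Cx3cr1-/-, Ccl2-/- or Cx3cr1-/-Ccl2-/- arrays 44, 45 or 23 genes passed, and without the WT arrays 670. Of the 16 genes with the largest contrasts, all kept their direction in each of these fits, and Akr1c18, Cyp11a1 and Daam2 passed in every one. Thbd passed in 3 of the 4, and not without the Cx3cr1-/-Ccl2-/- arrays (adjusted p = 0.0818).

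**Figure D5:**
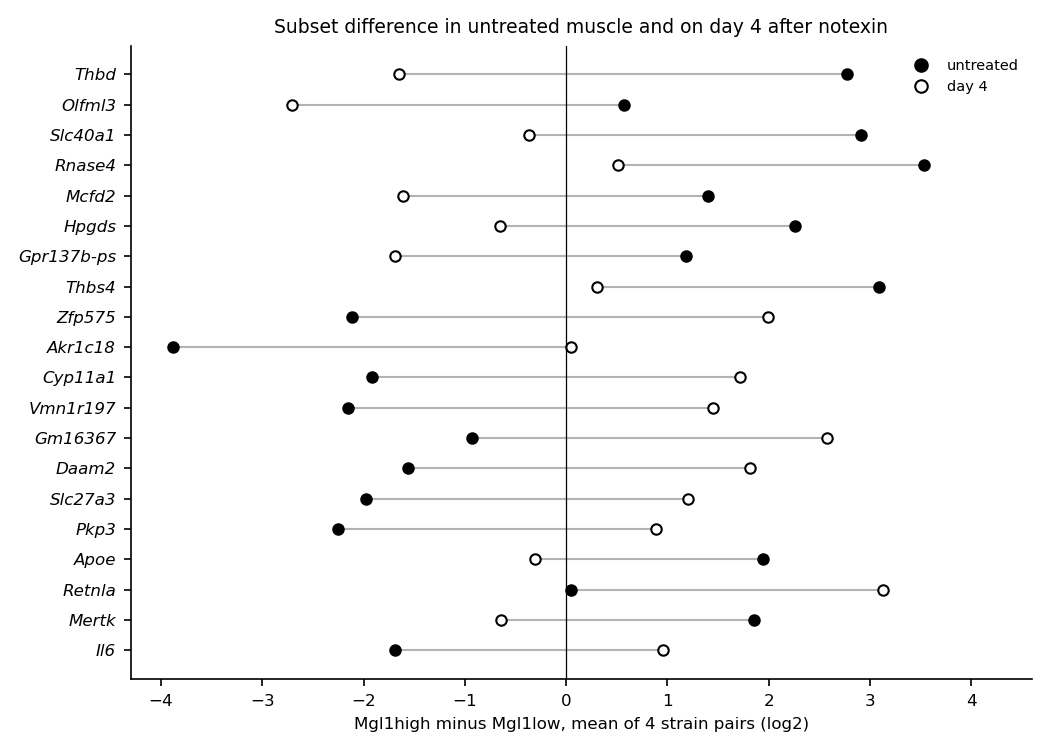
Mgl1high minus Mgl1low difference (log2, mean of 4 strain pairs, x axis) in untreated muscle (filled) and on day 4 after notexin (open) for the 16 genes with the largest contrast between the conditions and for Apoe, Retnla, Mertk and Il6. Thbd and Zfp575 change sides in opposite directions, and Retnla is near 0 in untreated muscle and 3.13 on day 4.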

How the data were processed

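Cells were sorted from pools of 3 mice, and their amplified RNA was hybridised to Illumina WG-6 v2.0 arrays that the authors read in GenomeStudio. The values deposited by the authors were an intensity for each of 45281 probes and array, not normalised, with a detection p-value, and a table of quantile-normalised intensities that served as an alternative. Probe symbols came from the platform annotation (34885 probes with 1 symbol, 18 with several, 10378 with none).

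Intensities were corrected with neqc from the detection p-values (offset 16) and quantile-normalised over all 24 arrays in limma 3.58.1 (R 4.3.3). Probes detected at p under 0.05 on at least 4 of the 8 arrays were tested (15723) with lmFit and eBayes without a block, and p-values were adjusted by Benjamini-Hochberg over all of them at a threshold of 0.05. A gene was read from its brightest tested probe. Depth is not defined for arrays, and their number limits the precision. The statistical code was tested on simulated data.

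The text names the 15 largest called genes in each direction with 1 sign in all 4 strains, the 8 largest contrasts with day 4 in each direction, and members of the gene lists. Members and lists were chosen with earlier results of these data known. At the lower end of the rule, Clec3b (3.08) was the last gene inside and Igfbp4 (3.07) the first outside, as were Serpinb2 (−2.51) and H2-DMb2 (−2.42). Both subsets of a strain came from the same pool, and deviations from the subset means correlated at 0.0936 to 0.249 within pools and at −0.141 to 0.00516 between them. Alternatives were the strain as a fixed or random block, other background, scaling, filter and variance settings, the methods' one-way test, and arrays or strains left out. Promoter windows were taken from RefSeq (GRCm38.p6). No array was identical to another.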

Additional observations from a re-analysis of the deposited data

Results flagged for a closer look

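In 13 of the 258 groups of 4 arrays examined (129 genes), 1 array lay apart from the other 3 by Dixon's test, and chance alone flags about 1 in 20 such groups. On the log2 scale these were Ccl8 at 7.99 on the WT Mgl1low array, against 4.56 to 4.78, Gprc5b at 9.77 on the Cx3cr1-/- Mgl1high array, against 9.09 to 9.18, Siglec1 at 7.62 on the WT Mgl1low array, against 4.77 to 4.84 and Pilra at 5.52 on the WT Mgl1high array, against 4.77 to 4.80. Further arrays stood apart for Cyp11a1 at 9.28 on the Ccl2-/- Mgl1low array, against 7.79 to 7.85, Gm16367 at 7.98 on the Cx3cr1-/-Ccl2-/- Mgl1high array, against 5.30 to 5.52 and Slc27a3 at 7.41 on the WT Mgl1high array, against 5.72 to 5.86. The same held for Cxcl12 at 8.39 on the Ccl2-/- Mgl1high array, against 7.11 to 7.25, Mgl2 at 11.34 on the Cx3cr1-/-Ccl2-/- Mgl1high array, against 10.72 to 10.79 and Igf1 at 11.76 on the Cx3cr1-/-Ccl2-/- Mgl1high array, against 11.18 to 11.27. The last were H2-Eb1 at 11.30 on the Cx3cr1-/-Ccl2-/- Mgl1low array, against 10.81 to 10.88, Ptgs2 at 6.51 on the Ccl2-/- Mgl1low array, against 8.25 to 8.32 and Col1a1 at 4.996 on the Ccl2-/- Mgl1low array, against 7.496 to 7.94. The number of detected probes was also apart, at 9896 on the Ccl2-/- Mgl1low array against 14897 to 15471 on the other Mgl1low arrays.

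The subset difference itself differed between untreated muscle and day 4 for 50 of the genes examined (limma contrast over 16 arrays, Benjamini-Hochberg, adjusted p from 5.44e-05 to 0.0497). The untreated minus day-4 contrast, in log2 units, was above 0 for 24 of them, with Thbd 4.42, Olfml3 3.28, Slc40a1 3.27, Rnase4 3.03, Mcfd2 3.02, Hpgds 2.91, Gpr137b-ps 2.87, Thbs4 2.79, Siglec1 2.501, Mertk 2.497, Msr1 2.48, Cnrip1 2.37 and Tcf4 2.34, and in the same direction with Mylip 2.27, Apoe 2.25, Abca1 2.24, Tfrc 2.06, Kank2 1.92, Irf8 1.89, Timd4 1.84, Enpep 1.79, Pmp22 1.504, Cd36 1.46 and Jun 1.396. It was below 0 for 26, with Zfp575 −4.11, Akr1c18 −3.93, Cyp11a1 −3.64, Vmn1r197 −3.61, Gm16367 −3.51, Daam2 −3.38, Slc27a3 −3.18, Pkp3 −3.15, Retnla −3.08, Spink2 −3.001, Upb1 −2.85, Slc2a6 −2.79 and Cd226 −2.78, and further with Cxcl10 −2.70, Il6 −2.64, Ltb4r1 −2.44, Marco −2.40, Klra2 −2.40, H2-DMb2 −2.29, Ipcef1 −2.14, Ccr2 −1.87, Mgl2 −1.83, Pilra −1.79, Cd52 −1.69, Il1rn −1.51 and Cd209d −1.29.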

How the results depend on the processing

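The 909 genes called in untreated muscle became 421 to 1066 (278 to 659 higher, 128 to 407 lower) when single arrays or the pair of arrays of a strain were left out. The pools pair the subsets, and with the strain as a replicate block 862 genes were called (557 higher, 305 lower), 769 of them shared; other changes of call under the block are given beside the genes in the report, apart from Des (adjusted p = 0.0715) and Slc27a3 (0.0415). With 1 median per array in place of the quantile step 54.5% of 930 calls were higher, against 66% of 909. The other settings gave 639 (all 24 arrays) to 1282 genes (array weights). Of the 101 called genes that were followed through all settings, 21 lost the call without some single array and 35 without some strain. None of them changed sign. Other called genes named in the text were not followed in this way, so the counts do not cover the whole text. Pf4 and Socs2, which lost the call with 1 array left out, are outside them. Of those followed, Bhlhe40, Ccrl2, Cxcl10, Daam2, Il10, Irf8, Klf2, Pros1 and Zfp575 lost it without the pair of at least 1 strain (adjusted p = 0.0502 to 0.0851). Daam2 also lost it without the Ccl2-/- Mgl1high array (0.061). The contrast with day 4 depended more on the processing. Its 745 genes (476 higher, 269 lower) became 874 with the pool as a block, 1717 (601 higher, 1116 lower) with 1 median per array, 386 (268 higher, 118 lower) with no filter on dim probes, 379 (232 higher, 147 lower) with all 24 arrays in the fit and 499 (304 higher) without the 2 arrays of lowest detection. Without each strain in turn it gave 23 to 670 genes (1 to 408 higher, 19 to 262 lower). The cause was not tested, beyond the smaller number of arrays in the fits that leave some out. The mean difference in detected probes was 1963 to 3483 without each strain in turn, with an exact p of 0.1, the smallest that 3 arrays against 3 allow, and 2966 with sign flips within strains as a replicate block, with an exact p of 0.125. Probes near background give bounds and not levels, and 1 array per strain and subset leaves no estimate of the error within a strain.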
